A study of Mus musculus with 12 samples.

Results

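The 9 genes described here are the receptors Nr1h2 (LXRβ) and Nr1h3 (LXRα), the noncoding RNA Mexis, and the target and efflux genes Abca1, Abcg1, Apoe, Arl4c, Lpcat3 and Mylip. They were chosen by symbol, as members of the liver X receptor (LXR) pathway and its cholesterol efflux arm, and all 9 listed symbols were found among the 12339 genes of the count table. RNA was sequenced from mouse peritoneal macrophages of 4 groups with 3 libraries each: WT on chow, WT on a Western-type high-fat diet (HFD), meKO on chow and meKO on HFD. Per the labels, mice of both genotypes and on both diets received AAV8PCSK9, a viral vector used to raise plasma cholesterol, at an age of 8 weeks. Thioglycolate, a sterile irritant that draws macrophages into the peritoneum, was given 4 weeks later and the cells were washed out. The series title names protein kinase C epsilon in myeloid cells, so meKO is read as a myeloid knockout of its gene, Prkce.

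Several features limit the groups as models. The labels name neither the recombinase line nor the sex or strain of the mice, and the cells were a lavage rather than a sorted population. The labels speak of 8 mice of each genotype, 4 of them on HFD, while 3 libraries of each group were analysed here. Apart from the library names, nothing states that the libraries came from separate animals, so the p-values measure the spread between these libraries.

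LXRs are nuclear receptors that sense oxysterols and desmosterol, which accumulate when a cell holds much cholesterol. Bound to DNA with a retinoid X receptor (RXR) partner, and once activated by such a sterol, they switch on genes that move cholesterol out of the cell. In macrophages the best known of these are the transporters Abca1 and Abcg1, which hand cholesterol to apolipoprotein A-I and to high-density lipoprotein, and the pathway is studied for its part in foam cell formation.

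Libraries held 25844958 to 37282772 counts over the listed genes. All 8 macrophage markers examined were detected, and none of 4 hepatocyte markers was among the listed genes. Prkce ran from 2.01 to 4.44 CPM (counts scaled to the size of the library, with TMM factors) in the 6 WT libraries, with a median of 2.71, and from 0.950 to 1.78 CPM in the 6 meKO libraries, with a median of 1.47. WT and meKO did not overlap, and Prkce RNA was still detected in meKO. WT chow libraries 1 and 2 stood apart from the rest: their log2 counts rose with transcript length relative to the mean library (Spearman's rho across genes 0.53 and 0.58), against -0.39 to 0.11 in the other 10. Lyz2, the lysozyme gene of myeloid cells, was at 30482 to 53835 CPM in the WT libraries. It was lower in every meKO library, at 16293 to 21309 CPM apart from 69.3 CPM in meKO chow library 2. Without that library the number of genes called among the 9 was the same in each of the 7 contrasts, while leaving out WT chow libraries 1 and 2 had effects that are given with the results. The WT chow group is then library 3 alone, which is assumed to vary like the other groups, and 15 of all genes were then called for diet in WT. Summed over 9 markers, mesothelium and fibroblast transcripts were at 51.3 to 90.5 CPM in WT chow, 91.5 to 138 in WT HFD, 51.2 to 95.0 in meKO chow and 110 to 136 in meKO HFD. They were higher in each HFD library than in any chow library of the same genotype. In WT, summed markers of B cells (128 to 157 CPM on chow, 78.5 to 93.3 on HFD), neutrophils (124 to 137 and 94.0 to 98.9) and dendritic cells (29.1 to 44.1 and 14.8 to 23) were lower in each HFD library. Most of the neutrophil sum was Csf3r (98.5 to 120 and 69.9 to 76.2), and Retnlg was lower too (7.71 to 10.2 and 3.43 to 5.10). The neutrophil markers S100a8 (7.81 to 14.4 and 16.6 to 18.1) and S100a9 (0.196 to 0.368 and 0.757 to 0.963) were higher in each WT HFD library. In meKO, summed T and NK cell markers were higher (10.1 to 11.1 and 15.1 to 18.7 CPM). Among the macrophage markers in WT, Csf1r ran from 788 to 844 CPM on chow and from 583 to 685 on HFD. Adgre1 (597 to 697 and 558 to 581) and Mertk (86.4 to 122 and 61.1 to 75.9) were also lower. Cd14 was higher in each WT HFD library (136 to 175 and 192 to 221). In meKO, Adgre1 and Mertk were lower in each HFD library and Fcgr1 was higher (114 to 179 and 184 to 218). The sum of all 8 overlapped between diets in both genotypes. In WT most of that sum was Lyz2 (31225 to 53835 of 36791 to 59395 CPM on chow). The part of these cell types in the diet results was not tested. In bulk RNA such as this, fewer cells of a type and less RNA per cell cannot be told apart.

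Response elements were looked for first, because LXR and RXR pairs are known to bind DR4 elements, direct repeats of a hexamer spaced by 4 bases. The motif AGGTCANNNNAGGTCA, whose 12 defined bases were scored, was searched for on both strands. The window was the 250 bases before each start site in the RefSeq promoter set (GRCm38.p6). Promoter entries matched 8 of the 9 genes by symbol, with 12 start sites, and not Abcg1. With up to 3 mismatches the motif was found before 3 of the 12 start sites, those of Abca1, Arl4c and 1 of 2 starts of Mexis, against 18.5% of 32851 promoters in the table. That tolerance was chosen after the Abca1 match had been seen, and at 2 mismatches no start site of the 9 genes matched, against 2.57% of promoters. The 3 stretches below are shown because these genes are among those that moved with diet; capitals mark the 16 bases of the match.

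Abca1, chr4:53159940-53159969, minus strand: cagcgttTGACCGGTAGTAACCCcggcgct
Arl4c, chr1:88702227-88702290, minus strand: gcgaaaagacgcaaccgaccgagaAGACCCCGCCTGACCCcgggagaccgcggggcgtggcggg
Mexis, chr4:53270233-53270482, minus strand: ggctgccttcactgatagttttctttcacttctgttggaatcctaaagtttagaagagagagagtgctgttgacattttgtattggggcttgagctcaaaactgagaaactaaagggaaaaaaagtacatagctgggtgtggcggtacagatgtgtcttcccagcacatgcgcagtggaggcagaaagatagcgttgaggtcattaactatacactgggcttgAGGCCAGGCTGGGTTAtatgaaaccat

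The match lay 67 to 52 bases before the Abca1 start, 75 to 60 before the Arl4c start and 27 to 12 before the Mexis start. The RefSeq span of Abca1 begins farther upstream, at chr4:53159988, so its match at 53159947 to 53159962 lay inside that span. On the strand of the gene the Abca1 and Arl4c matches were in the reverse orientation and the Mexis match in the forward one. The other 9 start sites held no match at that tolerance in this window, among them those of Nr1h3, Apoe, Lpcat3 and Mylip. RefSeq spans of Nr1h3 and Apoe begin farther upstream, at chr2:91202829 and chr7:19701310 on the minus strand. Those positions had no promoter entry and were not searched. A match is a string of letters, and binding was not measured.

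The 9 genes differed widely in abundance. Per kilobase of merged exons, Apoe stood at 7424 ± 1122 CPM per kb (SD over n = 12 libraries of all groups), above each of the other 8 genes in every library. Abcg1 followed at 58.1 ± 14, Abca1 at 37.7 ± 13.4, Nr1h3 at 35.2 ± 7.91 and Lpcat3 at 26.2 ± 5.26 CPM per kb. Nr1h2 stood at 18.7 ± 1.77, Arl4c at 14.4 ± 3.08, Mylip at 14.2 ± 2.39 and Mexis at 9.80 ± 5.82 CPM per kb. Below Apoe, the means of neighbours in this order differed by less than the sum of their SDs, except for Lpcat3 over Nr1h2. Mexis had the fewest reads, 265 to 1264 counts per library, and Apoe the most, 384935 to 612689.

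Most of the 9 genes were higher on HFD. Averaged over the 2 genotypes, 7 of the 9 were higher on HFD and none lower (edgeR quasi-likelihood test, Benjamini-Hochberg adjusted over 12339 genes, called at an adjusted p under 0.05); over all genes 14.9% were called higher and 15.3% lower. The 7 were Nr1h3, Mexis, Abca1, Abcg1, Arl4c, Lpcat3 and Mylip, and the 2 not called were Nr1h2 and Apoe. In WT alone the same 7 genes were called higher, where 9.5% of all genes were. That count was 4 with library totals as scaling (6.95% of all genes) and without WT HFD library 1 (1.5%), and 3 without WT chow library 1 (0.365%) or WT HFD library 3 (0.316%). In meKO alone edgeR called only Mexis, where 0.0324% of all genes were called higher and 6 of the 9 had an unadjusted p under 0.05, all of them higher, against 8.74% of all genes. DESeq2 called 5 of the 9 higher in meKO, against 1.02% of all genes: Mexis, Nr1h3 (0.0292), Abca1 (0.0283), Lpcat3 (0.0121) and Arl4c (0.0035). Voom with library quality weights also called 5, with Abcg1 (0.0440) in place of Abca1 (0.0573), against 1.73% of all genes. The median log2 fold change of the 9 genes was 0.59 in WT and 0.44 in meKO, beside -0.035 and -0.0057 over all genes. When WT chow libraries 1 and 2 were left out, 6 of the 9 were called higher in the average over genotypes, against 0.746% of all genes. In WT it was 1 of the 9, Mexis, against 0.0324% of all genes. The 2 diet comparisons use different libraries and share the estimate of the spread.

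**Figure D1:**
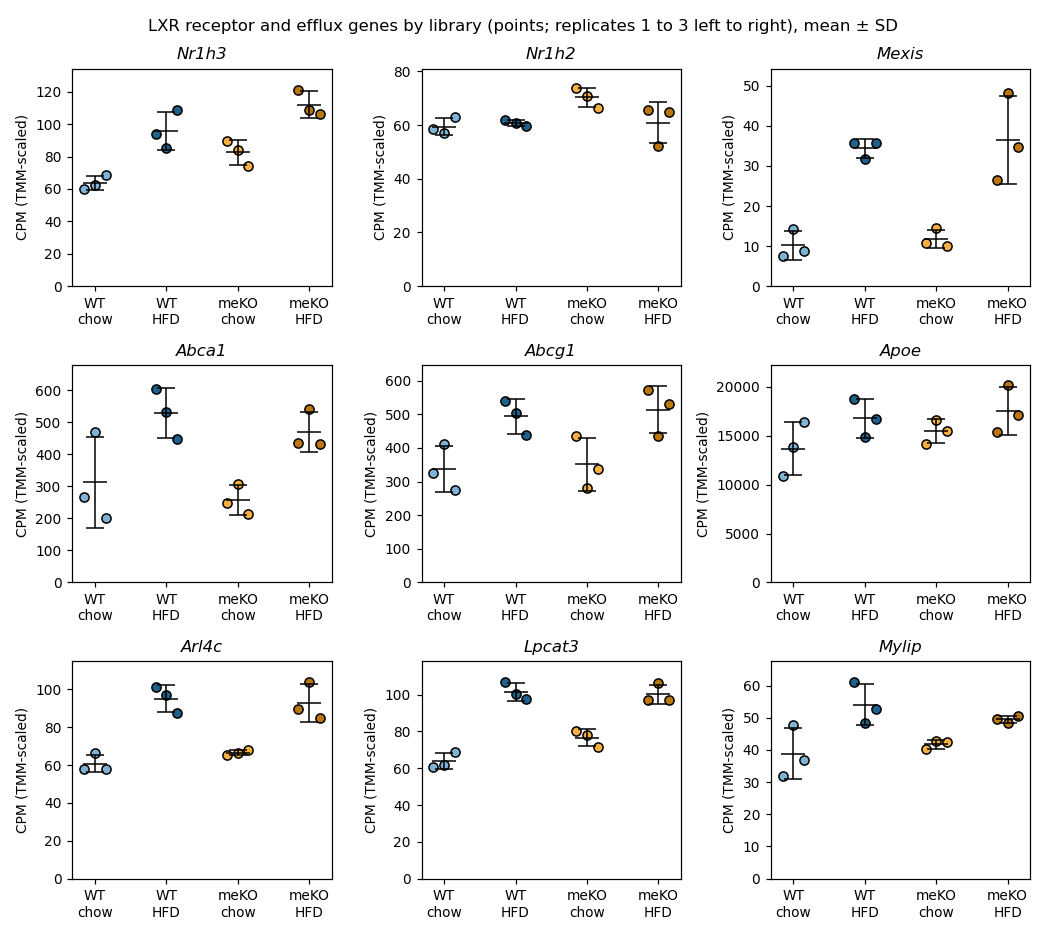
Expression of the 9 genes in each library (y axis, TMM-scaled CPM) by genotype and diet (x axis), with libraries 1 to 3 from left to right in each group; the crossbar is the mean and the whiskers the SD of 3 libraries. Nr1h3 and Mexis are higher on HFD in each genotype, Nr1h2 lies between 52.2 and 73.8 CPM throughout, and Apoe overlaps between diets.

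Nr1h3 encodes LXRα, the receptor that in some cell types is itself an LXR target, and lies at chr2:91184061-91202834 on the minus strand (GENCODE vM21). Whether it is an LXR target in these cells was not tested. Nr1h3 in WT was at 59.9, 62.5 and 68.3 CPM on chow (libraries 1 to 3, here and below) and at 94.1, 85.3 and 108 CPM on HFD. Nr1h3 in meKO was at 89.6, 84.3 and 74.4 CPM on chow and at 121, 109 and 106 CPM on HFD. The diets did not overlap in either genotype, and the meKO chow libraries lay between WT chow and WT HFD apart from meKO chow library 1, which exceeded WT HFD library 2. The rise on HFD in WT was 0.59 ± 0.12 log2 units (SE, as for all log2 fold changes here; adjusted p = 0.0111, edgeR), and averaged over genotypes it was 0.52 ± 0.08 (0.0035). For meKO the log2 fold change was 0.44 ± 0.12 (0.147). The WT call was lost without WT chow library 1 (0.57, adjusted p = 0.0639), without WT HFD library 3 (0.51, 0.0680) and without WT chow libraries 1 and 2 (0.49 ± 0.17, 0.381), with effects near the one above. In the last setting the averaged effect was 0.46 ± 0.10 (0.0482). Merged exons of Nr1h3 share 34 bases with Gm13783 on the same strand, so a few reads could belong to either.

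Nr1h2 encodes LXRβ, the more broadly expressed receptor, and lies at chr7:44549616-44553951, minus strand. Nr1h2 in WT was at 58.4, 57.0 and 62.9 CPM on chow and 61.8, 60.8 and 59.8 CPM on HFD, and in meKO at 73.8, 70.7 and 66.5 CPM on chow and 65.7, 52.2 and 64.8 CPM on HFD. Diets overlapped in WT, and in meKO the HFD libraries were all below the chow libraries. Nr1h2 was not called in any contrast by edgeR: the diet effect was 0.034 ± 0.11 for WT (adjusted p = 0.837, edgeR) and -0.21 ± 0.11 for meKO (0.349). The sign in WT turned with library totals as scaling (-0.052).

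The 2 receptors were therefore compared within each library, which removes the library size. In WT there were 1.03, 1.10 and 1.09 Nr1h3 counts per Nr1h2 count on chow and 1.52, 1.40 and 1.81 on HFD. In meKO there were 1.21, 1.19 and 1.12 on chow and 1.85, 2.09 and 1.64 on HFD. All 6 HFD libraries were above all 6 chow libraries, and on chow the meKO libraries were above the WT libraries. Group means for WT were 1.07 ± 0.0387 on chow and 1.58 ± 0.211 on HFD, and for meKO 1.18 ± 0.0494 and 1.86 ± 0.225 (SD, n = 3). The log2 ratio was 0.60 higher on HFD (exact two-sided permutation test within genotypes, 400 relabellings, p = 0.005, the smallest they can give; 0.01 adjusted over the 2 tests of this ratio). It was 0.18 higher in meKO than in WT (exact two-sided permutation test within diets, p = 0.04, adjusted 0.04). The diet difference was 0.52 after correction for transcript length and 0.55 to 0.65 with any 1 library left out, at an adjusted p of 0.01 throughout. The genotype difference fell to 0.14 with the length correction (adjusted p = 0.085, exact permutation test) and missed the threshold without WT chow library 1 (0.06), WT HFD library 1 (0.08) or 2 (0.095), or meKO HFD library 1 (0.085) or 2 (0.11).

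**Figure D2:**
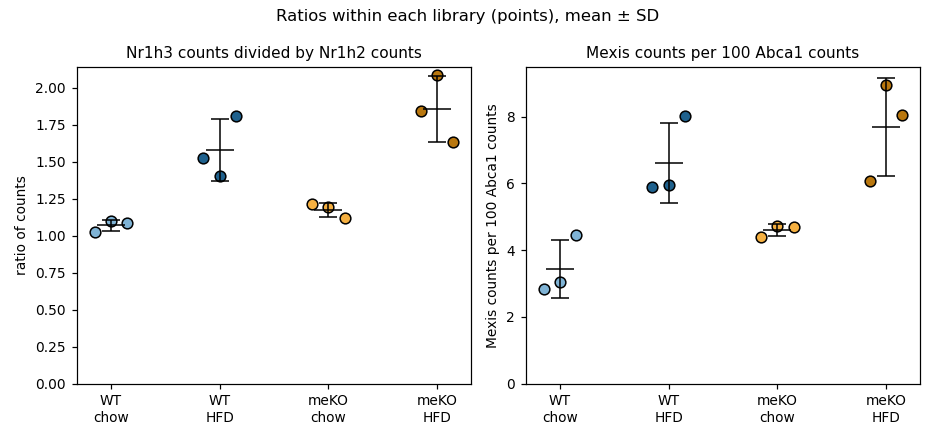
Ratios within each library (points, libraries 1 to 3 from left to right; bars are mean ± SD, n = 3) by genotype and diet: Nr1h3 counts divided by Nr1h2 counts on the left, and Mexis counts per 100 Abca1 counts on the right. In both panels all HFD libraries lie above all chow libraries; for Mexis per 100 Abca1 counts, 5.90 to 8.94 against 2.82 to 4.71.

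Mexis is a macrophage noncoding RNA known as an LXR target that raises Abca1 transcription. It lies at chr4:53261356-53270232 on the minus strand, where GENCODE lists it as the lincRNA AI427809, 101 kb from Abca1. Mexis in WT was at 7.50, 14.3 and 8.89 CPM on chow and 35.6, 31.7 and 35.8 CPM on HFD, and in meKO at 10.8, 14.4 and 10.1 CPM on chow and 26.6, 48.2 and 34.7 CPM on HFD. Every HFD library exceeded every chow library. On HFD, Mexis gained 1.75 ± 0.25 log2 units for WT (adjusted p = 0.0031, edgeR), 1.63 ± 0.24 for meKO (0.0180) and 1.69 ± 0.17 averaged over genotypes (0.00025). These were the largest diet effects among the 9 genes in each contrast. The WT and averaged calls held in all 23 and 22 alternatives run. The meKO call was lost when the 6 meKO libraries were fitted alone (0.0742) and without meKO chow library 1 (0.0670) or 3 (0.132), or meKO HFD library 2 (0.113) or 3 (0.101), with log2 fold changes of 1.37 to 1.65.

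Per 100 Abca1 counts, a quantity looked at after the values had been seen and not tested, Mexis gave 3.44 ± 0.881 counts for WT on chow and 6.62 ± 1.20 on HFD, and 4.60 ± 0.183 and 7.69 ± 1.46 for meKO (SD, n = 3). On chow the ratio was lowest in WT libraries 1 and 2, at 2.82 and 3.05, the same libraries in which long transcripts had the higher counts, and Abca1 has the longest merged exons of the 9 genes. Their part in the WT difference was not tested; in meKO, where those libraries do not enter, the chow libraries gave 4.39, 4.71 and 4.70 and the HFD libraries 6.09, 8.94 and 8.05.

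Abca1 (chr4:53030787-53159895, minus strand) encodes the transporter that loads cholesterol and phospholipid onto apolipoprotein A-I. Abca1 in WT was at 265, 469.6 and 199.9 CPM on chow and 604, 533 and 447 CPM on HFD, and in meKO at 246, 306 and 215 CPM on chow and 436, 539 and 431 CPM on HFD. WT chow library 2 was alone among the chow libraries in reaching the HFD range, and in meKO the diets did not overlap. Averaged over genotypes, Abca1 gained 0.82 ± 0.17 log2 units on HFD (adjusted p = 0.0082, edgeR). Without WT chow libraries 1 and 2 the averaged effect was 1.14 ± 0.15 (0.0040), and in WT the effect went from 0.76 ± 0.25 (0.0438) to 1.40 ± 0.24 (0.0611). The effect in meKO was 0.87 ± 0.25 (0.173).

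Abcg1 (chr17:31057675-31117988, plus strand) encodes the transporter that passes cholesterol to high-density lipoprotein. Abcg1 in WT was at 326, 412 and 274 CPM on chow and 541, 503 and 438 CPM on HFD, and in meKO at 435, 279.8 and 339 CPM on chow and 573, 437 and 532 CPM on HFD. All 6 HFD libraries were above all 6 chow libraries, the closest being meKO chow library 1 and meKO HFD library 2. Abcg1 rose by 0.55 ± 0.13 averaged over genotypes (edgeR adjusted p = 0.0097), with 0.55 ± 0.18 in each genotype alone (0.0424 in WT, 0.213 in meKO). Without WT chow libraries 1 and 2 the WT effect was 0.85 ± 0.24 (0.271). The WT calls of both transporters were also lost with library totals as scaling (0.0646 for Abca1 and 0.0861 for Abcg1), for Abca1 when the 6 WT libraries were fitted alone (0.0735), and when single libraries were left out, at an adjusted p of 0.0512 to 0.155. The log2 fold changes were then 0.53 to 0.88 for Abca1 and 0.43 to 0.73 for Abcg1. For Abca1 these were WT chow library 1 or 3, meKO chow library 1 and each HFD library, and for Abcg1 each WT library, meKO chow library 3 and meKO HFD library 3.

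Apoe (chr7:19696109-19699188, minus strand) encodes the apolipoprotein that macrophages secrete and that accepts effluxed lipid. Apoe in WT was at 10891, 13811 and 16400.4 CPM on chow and 18816, 14850.3 and 16701 CPM on HFD, and in meKO at 14195, 16628 and 15544 CPM on chow and 15369.7, 20154 and 17103 CPM on HFD. The diets overlapped in both genotypes. The diet effect was 0.24 ± 0.11 averaged over genotypes (edgeR adjusted p = 0.117), 0.29 ± 0.16 in WT (0.182) and 0.18 ± 0.16 in meKO (0.565). The size depended on the WT chow libraries. Without library 3, the highest of them, Apoe passed, with an averaged effect of 0.31 ± 0.11 (0.0297) and 0.45 ± 0.16 in WT (0.0373). In that fit 2586 of 12339 genes were called higher in the average and 2338 in WT, against 1835 and 1172 with all libraries. Apoe also passed in voom with quality weights (0.31, 0.0134, and 0.47 in WT, 0.0070), where 3038 and 2961 genes were called higher. Without WT chow libraries 1 and 2 the effects were 0.11 ± 0.12 (0.626) and 0.034 ± 0.20 in WT (0.964), and with the length correction 0.086 ± 0.090 (0.505) and 0.095 ± 0.13 in WT (0.639).

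Arl4c (chr1:88673125-88702221, minus strand) encodes a small GTPase that has been placed downstream of LXR in moving cholesterol to the cell surface. Arl4c in WT was at 58.2, 66.1 and 58.2 CPM on chow and 101, 96.8 and 87.4 CPM on HFD, and in meKO at 65.1, 66.5 and 67.9 CPM on chow and 89.4, 104 and 85.1 CPM on HFD. The highest chow library, at 67.9 CPM, was below the lowest HFD library, at 85.1 CPM. Arl4c rose by 0.64 ± 0.11 in WT (edgeR adjusted p = 0.0065) and by 0.56 ± 0.08 averaged over genotypes (0.0013), and the effect in meKO was 0.48 ± 0.11 (0.103).

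Lpcat3 (chr6:124663027-124704418, plus strand) encodes an acyltransferase that builds polyunsaturated fatty acids into membrane phospholipids. Lpcat3 in WT was at 60.9, 62.0 and 68.8 CPM on chow and 107, 100.3 and 97.6 CPM on HFD, and in meKO at 80.4, 78.2 and 71.3 CPM on chow and 97.0, 106 and 97.1 CPM on HFD. The diets did not overlap, the meKO chow libraries were all above the WT chow libraries, and the HFD libraries of the genotypes overlapped. Lpcat3 rose by 0.67 ± 0.10 in WT (edgeR adjusted p = 0.0039) and 0.53 ± 0.07 averaged over genotypes (0.0011), and the effect in meKO was 0.39 ± 0.10 (0.140). Its merged exons share 334 bases with Emg1 on the opposite strand, and since the strand setting of the counting is not given, reads there cannot be assigned to one gene.

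Mylip (chr13:45389742-45412022, plus strand) encodes IDOL, a ubiquitin ligase that sends lipoprotein receptors to degradation. Mylip in WT was at 31.9, 47.6 and 37 CPM on chow and 61.1, 48.4 and 52.7 CPM on HFD, and in meKO at 40.2, 42.6 and 42.4 CPM on chow and 49.7, 48.3 and 50.5 CPM on HFD. All HFD libraries were above all chow libraries, by a small margin in WT, where chow library 2 and HFD library 2 were 47.6 and 48.4 CPM. Mylip rose by 0.48 ± 0.14 in WT (edgeR adjusted p = 0.0302) and 0.36 ± 0.10 averaged over genotypes (0.0169), and the effect in meKO was 0.25 ± 0.14 (0.375). It was the averaged call lost without WT chow libraries 1 and 2 (0.40 ± 0.09, adjusted p = 0.0517). In WT, Mylip missed the threshold without WT chow library 1 (0.37, adjusted p = 0.125) or WT HFD library 1 (0.39, 0.0998) or 3 (0.51, 0.0926), with library totals (0.0535) and when the 6 WT libraries were fitted alone (0.0678). Without WT chow libraries 1 and 2 the WT calls of Mylip, Arl4c and Lpcat3 were lost (0.254, 0.139 and 0.210), with log2 fold changes of 0.55, 0.71 and 0.56 against a single WT chow library.

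Groups that did not overlap in TMM-scaled CPM give the same data without a test. In WT, 6 of the 9 genes were higher in every HFD library than in every chow library, against 19.4% of all genes, and in meKO 7 were, against 10.3%. Over both genotypes, all 6 HFD libraries were above all 6 chow libraries for 5 genes, Abcg1, Mexis, Mylip, Lpcat3 and Arl4c, against 2.99% of all genes. For Abcg1 and Mylip this depended on the scaling. With library totals as scaling, the diets overlapped in WT for both genes, and in meKO for Abcg1.

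**Figure D3:**
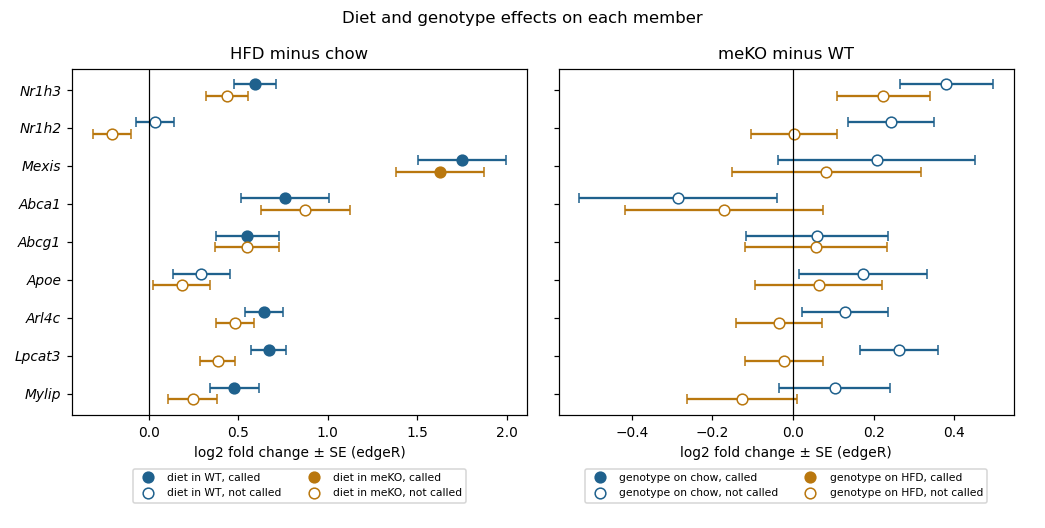
Log2 fold change ± SE from edgeR (x axis) for each of the 9 genes (y axis): HFD minus chow in WT and meKO on the left, meKO minus WT on chow and on HFD on the right; filled points had an adjusted p under 0.05. On the left 7 points are filled for WT and 1 for meKO, and on the right none is.

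Genotype comparisons gave 0 called genes of the 9 with edgeR. On chow, meKO minus WT ran from -0.29 to 0.38 on the log2 scale, with a median of 0.17 (-0.0012 over all genes), while 0.081% of all genes were called. At an unadjusted p under 0.05 there were 3 of the 9, against 19.8% of all genes. These were Nr1h3 (0.38 ± 0.12, edgeR adjusted p = 0.126), Nr1h2 (0.24 ± 0.11, 0.233) and Lpcat3 (0.26 ± 0.10, 0.172), which are also the 3 genes whose chow libraries did not overlap between genotypes, higher in meKO, against 8.87% of all genes. DESeq2 called 1 of the 9, Nr1h3 (adjusted p = 0.0414), and 5.05% of all genes tested. Voom with library quality weights called all 3, and 32.8% of all genes; limma-voom without weights called 0. Nr1h3 (0.0256) and Lpcat3 (0.0325) passed with edgeR without WT chow library 3, a fit that called 20.6% of all genes. With WT chow library 3 as the only WT chow library, the 3 effects were 0.16 to 0.28, in a fit that called 0.0243% of all genes.

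Abca1 was the gene with a negative difference between genotypes on chow, -0.29 ± 0.25 (edgeR adjusted p = 0.511). Its direction rested on WT chow library 2: without it the difference was 0.14 ± 0.18 (0.800), and after the length correction it was 0.022 ± 0.21 (0.969).

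On HFD, 0 of the 9 genes were called between genotypes, 0 had an unadjusted p under 0.05 and DESeq2 called 0. Over all genes these shares were 0.081%, 4.56% and 0.43%. The log2 differences ran from -0.17 to 0.22, with a median of 0.0025, and no gene of the 9 separated the 6 HFD libraries by genotype, which 10.3% of all genes did. Averaged over diets, 0 were called (0.17% of all genes), with Nr1h3 the single gene at an unadjusted p under 0.05 (0.30 ± 0.08, edgeR adjusted p = 0.149), against 17.7% of all genes. In that contrast DESeq2 called Nr1h3 (0.0328) and 3.03% of all genes, and voom with quality weights called Nr1h3 (0.0052), Nr1h2 (0.0436) and 31.1% of all genes.

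Whether diet acted differently in the 2 genotypes was tested by the interaction. None of the 9 genes was called by edgeR, 0 had an unadjusted p under 0.05 and DESeq2 called 0. Over all genes these shares were 0.0162%, 6.13% and 0.122%. The interaction was negative for 8 of the 9 genes, which means a lower log2 fold change on HFD in meKO. It ran from -0.28 to 0.11, with a median of -0.16 (0.023 over all genes). For Nr1h2 the diet effect was 0.034 in WT and -0.21 in meKO, so it was not smaller in size. The interaction of Abcg1 was -0.0021, and the signs for Abca1, Abcg1, Apoe and Mexis changed under an alternative. Lpcat3 had the value farthest from 0, -0.28 ± 0.14 (edgeR adjusted p = 0.797). The difference between 7 calls in WT and 1 in meKO is thus not a tested difference between genotypes.

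For Abca1, Abcg1 and Mexis, the genes with the most similar course over the 12 libraries were found as those with the smallest root mean square (RMS) difference in log2 CPM, each gene centred on its own mean, among the 11494 genes that averaged at least 1 CPM. Closest to Abca1 were Serpinb6b (RMS 0.239), a serine protease inhibitor, Itga9 (0.249), an integrin subunit, and Angptl7 (0.253), an angiopoietin-like protein, where Abca1 itself had an RMS of 0.534 about its mean. Closest to Abcg1 (0.350 about its mean) were Tgm2 (0.188), a transglutaminase, Dok3 (0.201), a docking protein of immune receptors, and Cry1 (0.204), a clock repressor. Closest to Mexis (0.904 about its mean) were Des (0.329), the muscle filament desmin, Gngt2 (0.347), a G protein gamma subunit, and Cryab (0.376), a small heat shock protein. These are descriptions over libraries that share diet groups and length trends. Among them Gngt2 was the most abundant, at means of 110.4 CPM on chow and 324 on HFD for WT, and 179 and 323 for meKO. Des and Cryab stood between 1.02 and 5.23 CPM in group means, and Angptl7 between 0.936 and 1.52 CPM. For diet averaged over genotypes, Itga9 (edgeR adjusted p = 0.0779) and Angptl7 (0.102) were not called, and the rest of these genes were called higher.

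Other genes around LXR were followed in lists, whose counts stand beside 14.9% of all genes called higher and 15.3% lower. Of 19 other LXR target genes in the table, 5 were called higher and 3 lower on HFD averaged over genotypes, with a median log2 fold change of 0.14 (-0.025 over all genes). The share called lower was close to that of all genes. Scd1 and Scd2, which put the double bond into fatty acids, rose by 1.37 ± 0.11 (edgeR adjusted p = 9.22e-05) and 1.19 ± 0.16 (0.0013). Scd1 went from 7.11 ± 1.09 to 16.5 ± 2.10 CPM in WT and from 4.97 ± 0.751 to 14.3 ± 0.416 CPM in meKO (SD, n = 3), and was the single gene of these lists called in meKO alone. The apolipoprotein genes Apoc2 (0.77 ± 0.14) and Apoc1 (1.38 ± 0.40), and Cd5l (1.24 ± 0.38), a secreted macrophage protein, also rose. Apoc1 was scarce, with group means between 0.536 and 2.20 CPM. Fasn, the fatty acid synthase gene, fell by 1.12, Fads1, a fatty acid desaturase, by 1.05, and Mertk, a receptor for dying cells, by 0.52 on the log2 scale. Srebf1, the LXR target that drives fatty acid synthesis genes, was not called (0.017 ± 0.11, adjusted p = 0.921). Srebf1, Apoc1 and Cd5l were named after their values were seen. Scd1 and Scd2 were still called in the average without WT chow libraries 1 and 2, and the other 6 were not.

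**Figure D4:**
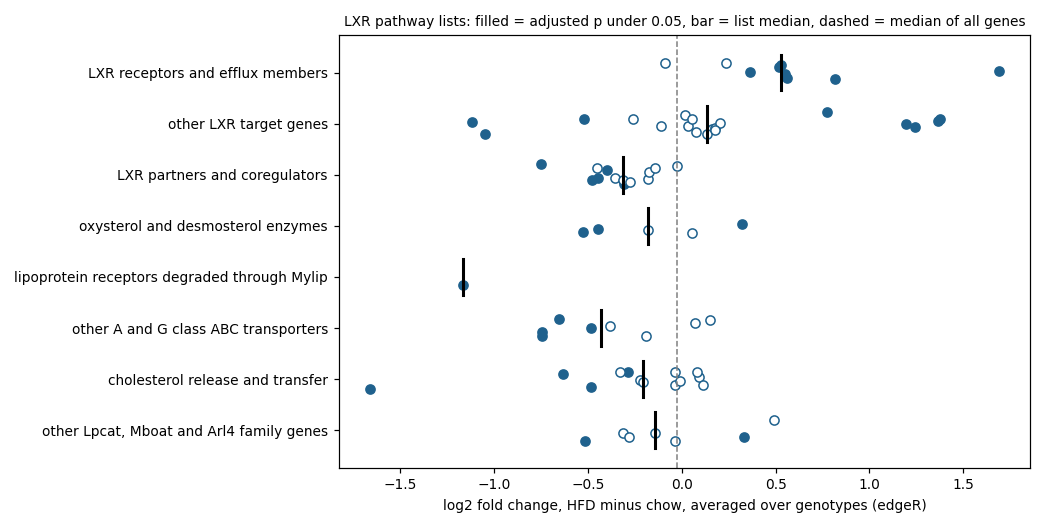
Log2 fold change on HFD against chow averaged over genotypes (x axis, edgeR) for the genes of 8 lists (y axis); each point is a gene, filled at an adjusted p under 0.05, bars are list medians and the dashed line the median of all genes. The 9 genes lie to the right with 7 filled, the other LXR targets lie on both sides with 5 filled higher and 3 lower, and the called partners and coregulators all lie to the left.

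Of 13 RXR partners and coregulators examined, 0 were called higher and 5 lower, with a median of -0.31. Rxra, the RXR form that pairs with LXR in macrophages, fell by 0.75 ± 0.12 averaged over genotypes (edgeR adjusted p = 0.0031). It went from 74.5 ± 13.8 to 39.6 ± 3.33 CPM in WT and from 51.4 ± 4.21 to 34.2 ± 7.11 CPM in meKO (SD, n = 3). The acetyltransferase gene Ep300 (-0.48), the coactivator Ncoa2 (-0.40) and the corepressor subunits Tbl1x (-0.44) and Tbl1xr1 (-0.31) were the other 4. Rxra was still called without WT chow libraries 1 and 2 (-0.58 ± 0.12, 0.0412) and the other 4 were not. The calls of Tbl1x and Tbl1xr1 were also lost without WT chow library 1 or 2, WT HFD library 3 or meKO chow library 3 alone, and that of Tbl1xr1 without meKO HFD library 2 (0.0515 to 0.0617).

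Of 5 enzymes that make or clear LXR ligands examined, 1 was called higher and 2 lower, with a median of -0.18. Dhcr7, an enzyme of late cholesterol synthesis (-0.53 ± 0.10), and Cyp27a1, which makes 27-hydroxycholesterol (-0.44 ± 0.13), fell. Hsd3b7, which acts on oxysterols on the way to bile acids, rose in the average (0.32 ± 0.12, edgeR adjusted p = 0.0484), and passed in 8 of 22 alternatives. Its rise was in WT, from 65.1 ± 10.2 to 104 ± 7.32 CPM, while meKO went from 97.0 ± 22.6 to 95.4 ± 10.5 CPM (SD, n = 3). Dhcr7 was still called without WT chow libraries 1 and 2, and Cyp27a1 was not (0.0878). Cyp27a1 also missed the threshold without WT HFD library 2 or 3, meKO chow library 2 or 3, or meKO HFD library 3 (0.0543 to 0.0710).

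Of the lipoprotein receptors that the Mylip protein acts on, 1 was examined here, Lrp8, which encodes apolipoprotein E receptor 2. It fell by 1.17 ± 0.30 on HFD averaged over genotypes (edgeR adjusted p = 0.0141). Lrp8 was scarce, with group means of 1.58 CPM on chow and 1.10 on HFD for WT, and 2.36 and 0.651 for meKO. The log2 fold change of Lrp8 was -0.52 in WT and -1.81 in meKO. Its call was lost without WT chow libraries 1 and 2 (-0.73 ± 0.35, 0.235). Receptor protein, the level at which Mylip acts, was not measured.

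Among 8 other A and G class ABC transporters 0 were called higher and 4 lower, Abca9 (-0.74), Abca3 (-0.75), Abca2 (-0.65) and Abca7 (-0.48). Of 13 genes of cholesterol release and transfer, 0 were called higher and 4 lower. These were Stard4, a sterol carrier (-1.66 ± 0.18, edgeR adjusted p = 0.00040), Scarb1, the scavenger receptor that exchanges cholesterol with high-density lipoprotein (-0.63 ± 0.11), Osbp, an oxysterol-binding exchanger (-0.48), and Soat1, which esterifies cholesterol for storage (-0.29). Of 7 relatives of Lpcat3 and Arl4c, Arl4a rose (0.33 ± 0.10, 0.0241) and Lpcat1 fell (-0.52 ± 0.11, 0.0073), shares close to those of all genes. Of the called genes in these last 3 lists, Stard4 was the one still called without WT chow libraries 1 and 2. The calls of Abca7 and Arl4a were also lost without WT chow library 1 or 2, WT HFD library 3, meKO chow library 1 or 3 or meKO HFD library 2, that of Abca7 without meKO HFD library 3, and that of Soat1 without WT chow library 1 or meKO chow library 3 (0.0509 to 0.0726). In the genotype and interaction contrasts no gene of these 7 lists was called by edgeR.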

How the data were processed

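Per the labels' protocols, Trizol was used for extraction and Illumina TruSeq chemistry for the libraries. The authors deposited whole-number counts per gene and library; the submitters' processing notes name mm10 and DESeq2. Aligner, counting tool and strand setting are not given in the sources used here. Columns were matched to samples by title and groups taken from titles; replicate numbers follow sample order and pair nothing. The lowest chi-square per degree of freedom between replicates was 16.9 over 12 pairs, so none was treated as a duplicate.

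The test was edgeR's (version 4.0.16, under R 4.3.3; TMM factors, filterByExpr, which kept all 12339 genes, robust quasi-likelihood F test, 4 group means over 12 libraries), two-sided, with Benjamini-Hochberg adjustment over all genes and calls at 0.05. SE is the absolute log2 fold change divided by the square root of F. The 7 contrasts were diet in each genotype, genotype on each diet, both averages and the interaction. The Nr1h3 to Nr1h2 ratio was tested by exact permutation within strata. Exon lengths came from GENCODE vM21 (93.5% of genes) and promoters from RefSeq GRCm38.p6. The test script was checked on simulated data.

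The members, lists and tests were chosen with earlier results of these data known. By rule, all 9 members were named, up to 4 called genes per list and contrast with the smallest p, the 3 genes most like Abca1, Abcg1 and Mexis, and Prkce and Lyz2. Alternatives tried were scaling by library totals or by median-of-ratios factors, no filter or at least 10 counts throughout, the DESeq2 (1.42.0) Wald test, voom in limma 3.58.1 with and without library quality weights, non-robust dispersions, the compared groups alone, an offset for transcript length, each library left out, and WT chow libraries 1 and 2 left out together. Some genes were left out of the lists and are not reported here.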

Additional observations from a re-analysis of the deposited data

How the results depend on the processing

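For diet in WT, the 7 calls became 4 with library totals and 1 without WT chow libraries 1 and 2, and ran from 3 to 7 with 1 library left out (3 without WT chow library 1 or WT HFD library 3, 4 without WT HFD library 1). For diet in meKO, the 1 call (0.105% of all genes) became 5 with DESeq2 (1.87%) and 5 with quality weights (3.23%), 0 with the compared groups alone, and 0 to 1 with 1 library left out (0 without meKO chow library 1 or 3 or meKO HFD library 2 or 3). For genotype on chow, the 0 calls became 1 with DESeq2 (5.05% of all genes), 3 with quality weights (32.8%), and 0 to 2 with 1 library left out (2 without WT chow library 3, where 20.6% of all genes were called). For genotype averaged over diets they became 1 with DESeq2 (3.03% of all genes), 2 with quality weights (31.1%), and 0 to 1 with 1 library left out (1 without WT chow library 3, where 11.3% of all genes were called). Diet averaged over genotypes kept 6 to 8 calls, and genotype on HFD and the interaction 0, in all alternatives. Signs turned for Nr1h2, diet in WT (-0.052 with library totals, -0.00055 with the length correction, -0.047 without WT chow libraries 1 and 2), and for Abca1, genotype on chow (0.022 with the length correction, 0.36 without WT chow libraries 1 and 2, and -0.51 to 0.14 with 1 library left out, positive without WT chow library 2). The Nr1h3 to Nr1h2 genotype difference was 0.14 with the length correction and 0.14 to 0.24 with 1 library left out. The causes were not tested. Of 36 member values in the genotype and interaction contrasts, none called, 19 changed sign under an alternative. Over all genes, the 2634 calls of diet in WT ran from 15 (without WT chow libraries 1 and 2) to 6411 (quality weights), the 13 in meKO from 1 to 398, the 3721 averaged from 202 to 6298, the 10 on chow from 2 to 4047, the 10 on HFD from 3 to 128, the 21 of genotype averaged from 8 to 3835 and the 2 of the interaction from 1 to 295. With library totals 857 of 2741 calls of diet in WT were higher, against 1172 of 2634. The 3 genes most like Abca1, Abcg1 and Mexis did not depend on scaling, by construction. No paired analysis was possible because the labels number no replicates across groups. With 3 libraries a group, an exact test of a single gene within 1 genotype or diet cannot pass 0.05.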
